A study of Mus musculus with 11 samples.

Results

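Proneural and neurogenic transcription factors were described in mouse hippocampal NSCs (neural stem cells, the dividing cells that give rise to neurons and glia). The members are 9 genes chosen by name, Neurog2, Neurod1, Neurod2, Neurod6, Eomes, Insm1, Tbr1, Sox4 and Sox11, of the 53801 genes in the deposited tables. The rule names the genes and sets no threshold on a measured value, though it was drawn up with earlier results of these data known. RNA of 11 primary cultures was sequenced, 3 with 4HBP and 3 with EtOH in proliferation medium, and 3 with 4HBP and 2 with EtOH in differentiation medium. All cells came from the embryonic hippocampus and were exposed for 7 days to 1 µM 4HBP or to the vehicle EtOH (ethanol). Proliferation medium held the growth factors EGF and bFGF, and differentiation medium held neither. The study's text names the compound 4-hydroxybenzophenone, whereas its sample labels read 4-Hydroxybenzoic acid, and the abbreviation 4HBP is used here. Neither source says which libraries came from separate cell preparations, so p-values measure the spread between these libraries, which may be technical in part.

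Neurogenesis in the embryonic hippocampus runs through a cascade of transcription factors. Neurog2, a proneural bHLH (basic helix-loop-helix) factor, starts neuronal commitment of radial glia, the T-box factor Eomes and the zinc-finger factor Insm1 mark intermediate progenitors, and Neurod1, Neurod2, Neurod6 and the T-box factor Tbr1 follow as glutamatergic neurons mature. Proneural bHLH factors pair with E proteins on DNA sites called E-boxes. Sox4 and Sox11 belong to the SoxC family, which is switched on in committed progenitors and activates pan-neuronal genes.

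In these cultures, Sox4 was abundant, Sox11 and Insm1 were moderate to low, and the 4 bHLH and 2 T-box members had few counts. With 4HBP, Sox4 fell 1.34-fold in proliferation medium, a call lost in 6 of 12 alternatives, and no member was called in differentiation medium. Between the media, Sox4 and Sox11 were lower in differentiation medium with EtOH and with 4HBP. Neurog2 was higher there, from near the detection floor, and its EtOH call was lost without 1 library.

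Library totals were 20822921 to 23438463 expected counts, so that 3 counts, taken as the floor of detection, equal 0.128 to 0.144 CPM (a gene's count as a share of the library total, brought to a common library size). Floors cover counting error only. In proliferation medium, 4HBP replicate 3 stood apart from the other 4HBP libraries, with a mean chi-square per gene of 25.7 and 23.1 against them, where they differed by 5.63 from each other and EtOH libraries differed by 10.1 to 12.8. In differentiation medium the same measure was between 2.61 and 2.97. All 9 markers of neural stem cells and radial glia were detected in every group. They summed to 7437 to 8375 CPM in proliferation medium and 4421 to 4600 CPM in differentiation medium. The 8 astrocyte markers summed to 4072 to 6863 CPM and 7997 to 8335 CPM in these media, in that order. The 8 oligodendrocyte lineage markers summed to 2176 to 3916 CPM and 7743 to 8178 CPM. Sox9 is in both the stem cell and the astrocyte list. Prox1, a factor of dentate granule cells, was also detected, at 34.9 to 61.71 CPM. Microglia markers summed to 1.24 to 3.73 CPM. The 6 endothelial and mural cell markers summed to 7.95 to 14.9 CPM in proliferation medium and 30.46 to 35.35 CPM in differentiation medium. Of these, Cldn5 was at 0 throughout, and Pdgfrb had 26.8 to 30.47 CPM in differentiation medium.

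The DNA upstream of 3 members is shown first, because these are the members that passed the test between media in both treatments. Each run is the part of RefSeq's window before the start of transcription (GRCm38.p6) that lies outside the annotated gene, 5′ to 3′ on the gene's strand, and capitals mark E-boxes.
Neurog2, chr3:127632886-127633134, plus strand: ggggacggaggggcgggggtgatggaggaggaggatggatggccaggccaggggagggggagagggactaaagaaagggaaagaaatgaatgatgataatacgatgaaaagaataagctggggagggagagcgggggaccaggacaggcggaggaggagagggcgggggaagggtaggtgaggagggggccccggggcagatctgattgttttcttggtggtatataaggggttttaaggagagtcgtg
Sox4, chr13:28953714-28953949, minus strand: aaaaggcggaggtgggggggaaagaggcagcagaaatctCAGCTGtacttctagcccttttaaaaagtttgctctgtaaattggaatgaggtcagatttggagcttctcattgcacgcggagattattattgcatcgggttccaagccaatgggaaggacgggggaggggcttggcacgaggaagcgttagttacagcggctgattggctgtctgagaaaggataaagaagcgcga
Sox11, chr12:27342719-27342968, minus strand: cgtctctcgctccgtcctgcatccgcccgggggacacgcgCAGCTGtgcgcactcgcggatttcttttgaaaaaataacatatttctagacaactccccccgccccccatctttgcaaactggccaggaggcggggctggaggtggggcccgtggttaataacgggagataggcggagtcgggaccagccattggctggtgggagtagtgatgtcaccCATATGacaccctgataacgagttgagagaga

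The windows of Sox4 and Sox11 each held the palindromic E-box CAGCTG, a form bound by proneural factors, within the 250 bases searched, and the window of Neurog2 held no E-box of any form. Over all 32851 promoter windows of the same length, 13% held CAGCTG and 66.2% held the general E-box CANNTG, of which CAGCTG and CAGATG are special forms. RefSeq's table held 8 of the 9 members, not Insm1. Of these windows, only those of Sox4 and Sox11 held CAGCTG, and all but those of Neurog2 and Eomes held CANNTG. Among the 8, CAGATG (on either strand) was found for Neurod2 alone and the SOX-type motif ACAAAG (on either strand) for Tbr1 alone, against 14.4% and 16.5% of all windows. The window of Tbr1 began inside its annotated gene. That of Sox11 ended before its annotated gene began (run to 27342719, gene from 27342574, minus strand). The CBF1/RBPJ-type motif GTGGGAA (on either strand) was in none of the 8 and in 5.42% of all windows. These matches describe letters in a window and are not binding sites.

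Levels of different genes were compared per transcript length, in TPM (RSEM's length-corrected share of all transcripts) within each library. Sox4 was the most abundant member in all 11 libraries, with 145.6 to 237.4 TPM, and ranked 731 of all genes by mean TPM. Sox11, its SoxC relative, had 11.55 to 15.05 TPM, and Insm1 had 2.68 to 4.18 TPM. These 3 ranges did not overlap, and no library of Insm1 reached down to any library of the other 6 members. Sox4 supplied 88.32% to 93.02% of the summed TPM of the 9 members, and the ratio of Sox4 to Sox11 TPM was between 10.48 and 19.04.

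The remaining 6 members were far below Insm1, and each overlapped its neighbours in the order of the means. Neurod1 had 0.26 to 0.88 TPM, Neurod6 0.11 to 0.90 TPM and Neurog2 0 to 1.10 TPM. Neurod2 had 0.06 to 0.37 TPM, Tbr1 0.03 to 0.31 TPM and Eomes 0 to 0.21 TPM. With both media pooled, the order of neighbours among these 6 is therefore not larger than the spread between libraries. Neurod6 and Neurog2 changed order with the medium. Neurod6 was above Neurog2 within every proliferation library. In differentiation medium Neurog2 had 0.43 to 1.10 TPM and Neurod6 0.11 to 0.37 TPM. Every Neurod1 library lay above every Eomes library. In counts, Eomes was at 3 or fewer in 8 of the 11 libraries and at 0 in 4, and Tbr1 was at 3 or fewer in 5. Neurog2 was at 3 or fewer in 3 libraries, all in proliferation medium.

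**Figure D1:**
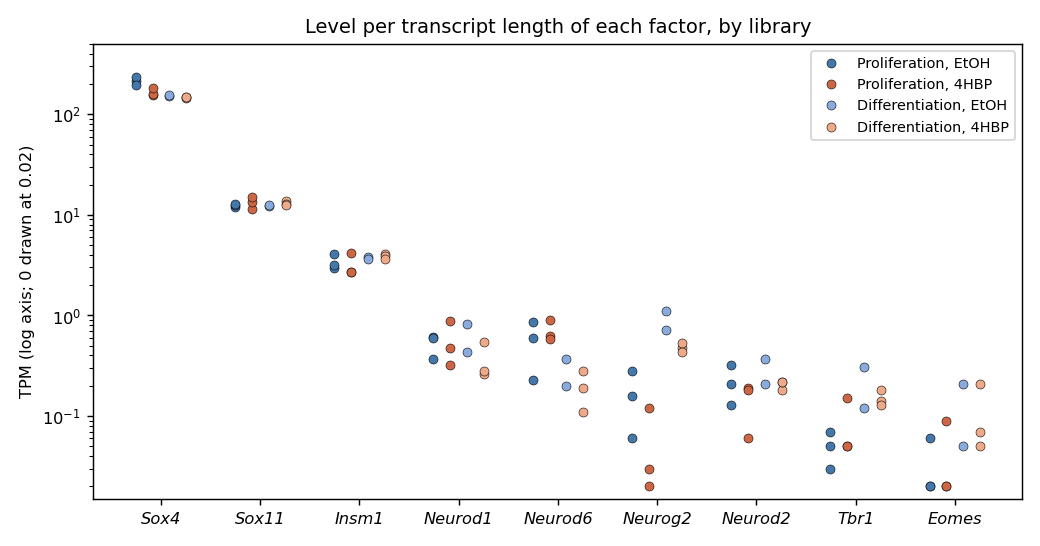
Each point is the TPM of a factor in 1 of the 11 libraries, on a log axis, coloured by medium and treatment, with listed values of 0 drawn at 0.02. Sox4 (145.6 to 237.4 TPM), Sox11 (11.55 to 15.05 TPM) and Insm1 (2.68 to 4.18 TPM) form separate bands above the 6 others. Each of the 6 overlaps its neighbours in the order of the means.

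Sox4, a single-exon gene on the minus strand of chromosome 13 (28948919 to 28953713, GRCm38), encodes an HMG-box factor of committed neuronal progenitors. In EtOH cultures in proliferation medium it had 734.4, 825.0 and 682.5 CPM in replicates 1 to 3, and with 4HBP 550.8, 547.9 and 613.5 CPM. Every 4HBP library lay below every EtOH library. The 4HBP mean was 570.7 ± 37.1 CPM (SD, n = 3) and the EtOH mean 747.3 ± 72.1 CPM (SD, n = 3). Sox4 thus fell 1.34-fold, with a log2 fold change of -0.42 (SE 0.0903, edgeR adjusted p = 0.0274). This was the 1 call among the 5 members that passed the filter on low counts, against 7.43% of the 14449 genes tested, with 3.69% called lower and 3.74% higher. At an unadjusted p under 0.05 it was also 1 of 5, against 25.1% of genes. Groups that do not overlap were also common, at 31.9% of the genes tested, against 1 of the 5 members tested.

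The size of the Sox4 difference was stable and its call was not. Over the 12 alternatives the log2 fold change stayed between -0.48 and -0.34 and the adjusted p lay between 0.00024 and 0.119. The call was lost in 6 of the 12, among them limma on log2(CPM+1) (adjusted p = 0.0973). The study also used limma, but called genes by p with a cut on fold change, not by an adjusted p. The call was also lost on leaving out 4HBP replicate 1 (edgeR adjusted p = 0.068), 4HBP replicate 2 (0.0985), EtOH replicate 1 (0.0917) or EtOH replicate 2 (0.119). Without 4HBP replicate 3, the library that stood apart, it held (log2 fold change -0.45, edgeR adjusted p = 0.0158). Whether fewer cells with Sox4 or less Sox4 RNA per cell lay behind it cannot be told apart in bulk RNA.

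Sox4 shares its locus with Gm26735, a long noncoding RNA annotated on the opposite strand. The libraries were stranded, but the strand setting of the counting is not given in the sources used here. Gm26735 had 7 to 25 counts in proliferation medium and 109 to 251 in differentiation medium, or 0.0608% to 0.163% and 1.12% to 2.81% of the Sox4 count. Its counts are thus small beside those of Sox4 in every library, and they were higher in the medium where Sox4 was lower.

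In differentiation medium, Sox4 had 414.5 and 421.8 CPM with EtOH and 399.9, 406.8 and 406.3 CPM with 4HBP. The groups did not overlap, but the difference was small, with a log2 fold change of -0.04 (SE 0.0314, edgeR adjusted p = 0.548). The difference between media of the 4HBP effect was tested in a fit to all 11 libraries, which gave a log2 difference of -0.39 for Sox4 (SE 0.101, edgeR adjusted p = 0.0475), proliferation minus differentiation. It was the 1 call among 7 members tested, against 4.49% of 15920 genes, with 2.48% lower, 2.01% higher and 19.9% at an unadjusted p under 0.05. The other 6 tested members had log2 differences between -0.76 (Neurog2) and 0.80 (Neurod6), with edgeR adjusted p from 0.548 to 0.922. The call was lost in 12 of 17 alternatives, among them library totals in place of TMM (edgeR adjusted p = 0.0838), limma on log2(CPM+1) (adjusted p = 0.164) and leaving out any of 9 of the 11 libraries. Among the single libraries left out, it held without proliferation 4HBP replicate 3 (edgeR adjusted p = 0.0196) and without proliferation EtOH replicate 3 (0.015). DESeq2 gave an adjusted p of 0.00432, and voom with weights per medium gave 0.0141.

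**Figure D2:**
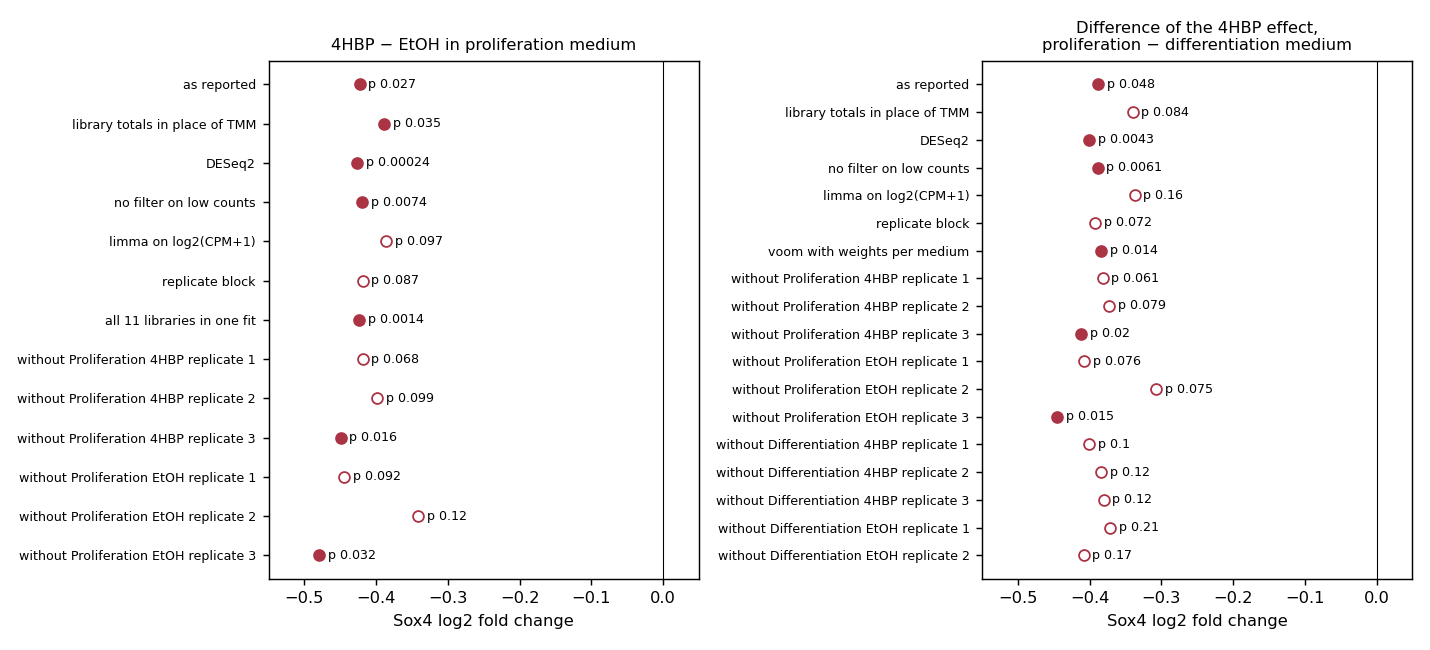
Sox4 log2 fold change with 4HBP in proliferation medium (left) and the difference of that effect between media (right), as reported and under each alternative setting, with the adjusted p beside each point and filled points for an adjusted p under 0.05. All points lie between -0.48 and -0.31, and filled and open points are mixed in both panels.

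Between the media, Sox4 fell in differentiation medium in EtOH cultures, with a log2 fold change of -0.92 (SE 0.0768, edgeR adjusted p = 4.2e-07), or 1.90-fold lower. Under 4HBP the log2 fold change was -0.54 (SE 0.067, edgeR adjusted p = 1.2e-05). In both treatments every differentiation library lay below every proliferation library. The unequal size of these falls is the same interaction as above, read the other way. These comparisons called most genes, 61.4% of 15920 in EtOH cultures and 67.2% under 4HBP, so that a call in them is common. At an unadjusted p under 0.05 the shares were 65% and 70%. Groups did not overlap for 76.6% of genes with EtOH and 70.9% with 4HBP, against 3 of the 7 members tested with EtOH and 4 of the 7 with 4HBP. Of the 7 members tested, 3 were called in EtOH cultures and 4 under 4HBP.

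Sox11, a single-exon gene on the minus strand of chromosome 12 (27334264 to 27342574), acts beside Sox4 in the SoxC family. In proliferation medium it had 71.4, 76.5 and 78.8 CPM with EtOH and 71.8, 81.4 and 89.7 CPM with 4HBP, with overlapping groups (log2 fold change 0.06, SE 0.084, edgeR adjusted p = 0.696). In differentiation medium it had 58.4 and 60.2 CPM with EtOH and 67.1, 62.1 and 60.9 CPM with 4HBP. All 3 of these 4HBP libraries lay above both EtOH libraries, but the log2 fold change of 0.10 (SE 0.0496) did not pass (edgeR adjusted p = 0.334). Between the media Sox11 fell in EtOH cultures (log2 fold change -0.44, SE 0.0808, edgeR adjusted p = 0.00042) and under 4HBP (-0.39, SE 0.0714, adjusted p = 0.00031). The groups did not overlap in either. Its 4HBP effect did not differ detectably between media (log2 difference -0.05, SE 0.107, edgeR adjusted p = 0.862).

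Insm1, a single-exon gene on the plus strand of chromosome 2 (146221921 to 146225020), encodes a repressor that promotes intermediate progenitors. Its counts were 132, 145 and 190 with EtOH and 128, 192 and 119 with 4HBP in proliferation medium, and 144 and 147 with EtOH and 158, 158 and 132 with 4HBP in differentiation medium. The groups overlapped in all 4 comparisons. The log2 fold change with 4HBP was -0.12 (SE 0.222, edgeR adjusted p = 0.783) in proliferation medium and 0.08 (SE 0.126, edgeR adjusted p = 0.831) in differentiation medium. Between the media it was -0.30 (SE 0.211, edgeR adjusted p = 0.239) with EtOH and -0.09 (SE 0.189, edgeR adjusted p = 0.687) with 4HBP. The spread was wider in proliferation medium, where the SD was 1.46 CPM with EtOH and 1.89 CPM with 4HBP around means of 7.43 and 6.97 CPM, than in differentiation medium, where it was 0.210 and 0.370 CPM.

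**Figure D3:**
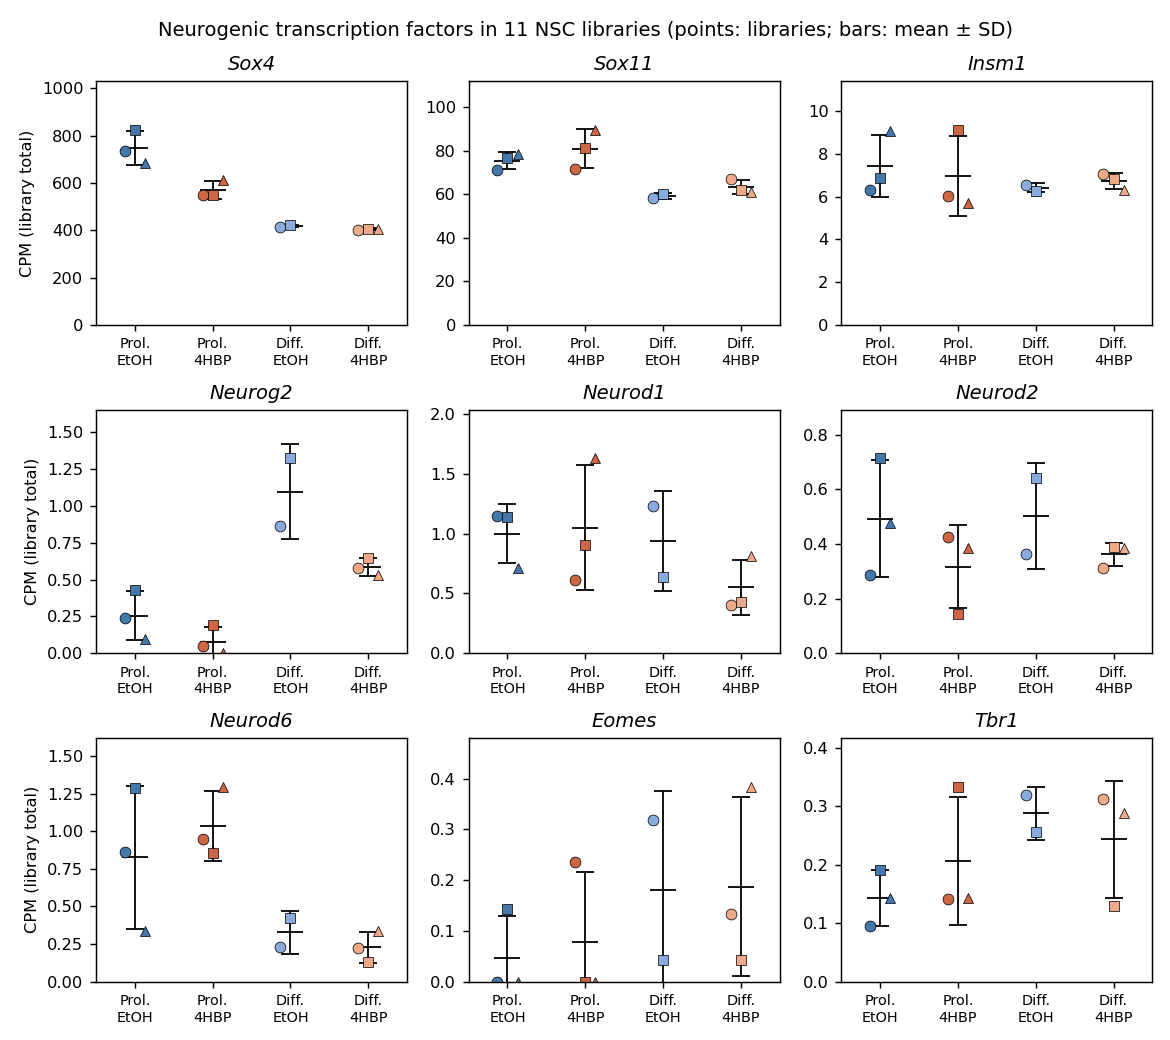
CPM of each of the 9 factors in each library (points, with circle, square and triangle for replicates 1, 2 and 3), with mean ± SD bars per group of 3 libraries (2 for differentiation EtOH), each panel on its own linear axis from 0. Sox4 with EtOH in proliferation medium (682.5 to 825.0 CPM) lies above every other library, and Neurog2 is higher in differentiation medium (0.528 to 1.32 CPM) than in proliferation medium (0 to 0.428 CPM).

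Neurog2 lies on the plus strand of chromosome 3 (127633135 to 127635631) and has 2 exons. In proliferation medium it had 5, 9 and 2 counts with EtOH and 1, 4 and 0 counts with 4HBP, too few to pass the filter. A fit without the filter gave a log2 fold change of -1.63 there (edgeR adjusted p = 0.472). In differentiation medium it had 19 and 31 counts with EtOH and 13, 15 and 11 counts with 4HBP. All 5 differentiation libraries were above all 6 proliferation libraries, also as CPM. The log2 fold change between media was 2.00 in EtOH cultures (SE 0.584, edgeR adjusted p = 0.00951) and 2.76 under 4HBP (SE 0.714, edgeR adjusted p = 0.00398), where the proliferation group held 5 counts in all against 39. Neurog2 passed the filter in these fits only through the differentiation libraries, where it was high. Without the filter the edgeR adjusted p was 0.003 with EtOH and 0.00035 with 4HBP. The size of the rise was poorly fixed, with a log2 fold change under 4HBP between 2.18 (without proliferation 4HBP replicate 3) and 4.30 (without proliferation 4HBP replicate 2). The EtOH call was lost without differentiation EtOH replicate 2 (log2 fold change 1.66, edgeR adjusted p = 0.0991).

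With 4HBP in differentiation medium, Neurog2 had 0.585 ± 0.059 CPM (SD, n = 3) against 1.10 ± 0.32 CPM (SD, n = 2), and the groups did not overlap. The log2 fold change of -0.89 (SE 0.374) had an unadjusted p of 0.0302 from edgeR and did not pass (adjusted p = 0.248, between 0.244 and 1 over the alternatives). Neurog2, Sox4 and Sox11 were 3 of the 5 members tested whose CPM did not overlap between 4HBP and EtOH in this medium, against 33% of all genes tested. None of the 5 members tested was called there by edgeR, where 2.56% of 15484 genes were, 1.26% higher and 1.3% lower. The share at an unadjusted p under 0.05 was 15.9%. At an unadjusted p under 0.05 edgeR gave 1 member, DESeq2 gave 0 and limma gave 1 of 9, and neither of the latter called any.

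Neurod1, a 2-exon gene on the minus strand of chromosome 2 (79452521 to 79456751), drives terminal differentiation of granule neurons. It had 24, 24 and 15 counts with EtOH and 13, 19 and 34 with 4HBP in proliferation medium, and 27 and 15 counts with EtOH and 9, 10 and 17 with 4HBP in differentiation medium. The highest of all libraries was proliferation 4HBP replicate 3, and the groups overlapped throughout. The log2 fold change with 4HBP was 0.03 (SE 0.397, edgeR adjusted p = 0.976) in proliferation medium, and without that library it was -0.40 (edgeR adjusted p = 0.573). In differentiation medium it was -0.76 (SE 0.443, edgeR adjusted p = 0.435). Between the media under 4HBP it was -0.97 (SE 0.445, edgeR adjusted p = 0.0706), a value that passed without proliferation 4HBP replicate 1 (0.0311) or differentiation 4HBP replicate 3 (edgeR adjusted p = 0.0343). Cerkl overlaps Neurod1 on the same strand and had 0 to 10 counts.

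Neurod6, a 2-exon gene on the minus strand of chromosome 6 (55677822 to 55681263), marks glutamatergic neurons of the cortex and hippocampus. It had 18, 27 and 7 counts with EtOH and 20, 18 and 27 with 4HBP in proliferation medium. In differentiation medium it had 5 and 10 counts with EtOH and 5, 3 and 7 with 4HBP. The 4HBP libraries did not overlap between media, and Neurod6 fell there with a log2 fold change of -2.19 (SE 0.526, edgeR adjusted p = 0.00238). In EtOH cultures the groups overlapped, with proliferation replicate 3 at 7 counts, and the log2 fold change of -1.40 (SE 0.575) just missed the threshold (edgeR adjusted p = 0.05005). It passed without that library (edgeR adjusted p = 0.00947) and without the filter on low counts (0.0316). Neurod6 passed the filter in these fits only through the proliferation libraries, where it was high. Without the filter its edgeR adjusted p under 4HBP was 5.4e-05.

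Neurod2, which acts in maturing glutamatergic neurons and lies on the minus strand of chromosome 11 (98325415 to 98329648), had 3 to 15 counts in every library. Its groups overlapped in all comparisons, and its log2 fold changes between the media were -0.05 (SE 0.516, edgeR adjusted p = 0.937) with EtOH and 0.14 (SE 0.518, edgeR adjusted p = 0.816) with 4HBP. A difference within these errors was not detectable at this depth.

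Eomes, on the plus strand of chromosome 9 (118478212 to 118486132), and Tbr1, on the plus strand of chromosome 2 (61802930 to 61814114), passed the filter in no comparison. Eomes had 0, 3 and 0 counts with EtOH and 5, 0 and 0 with 4HBP in proliferation medium, and 7 and 1 with EtOH and 3, 1 and 8 with 4HBP in differentiation medium. Tbr1 had 2, 4 and 3 counts with EtOH and 3, 7 and 3 with 4HBP in proliferation medium, and 7 and 6 with EtOH and 7, 3 and 6 with 4HBP in differentiation medium. Both EtOH libraries in differentiation medium were above the 3 in proliferation medium for Tbr1. Changes of either gene were not detectable at this depth.

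**Figure D4:**
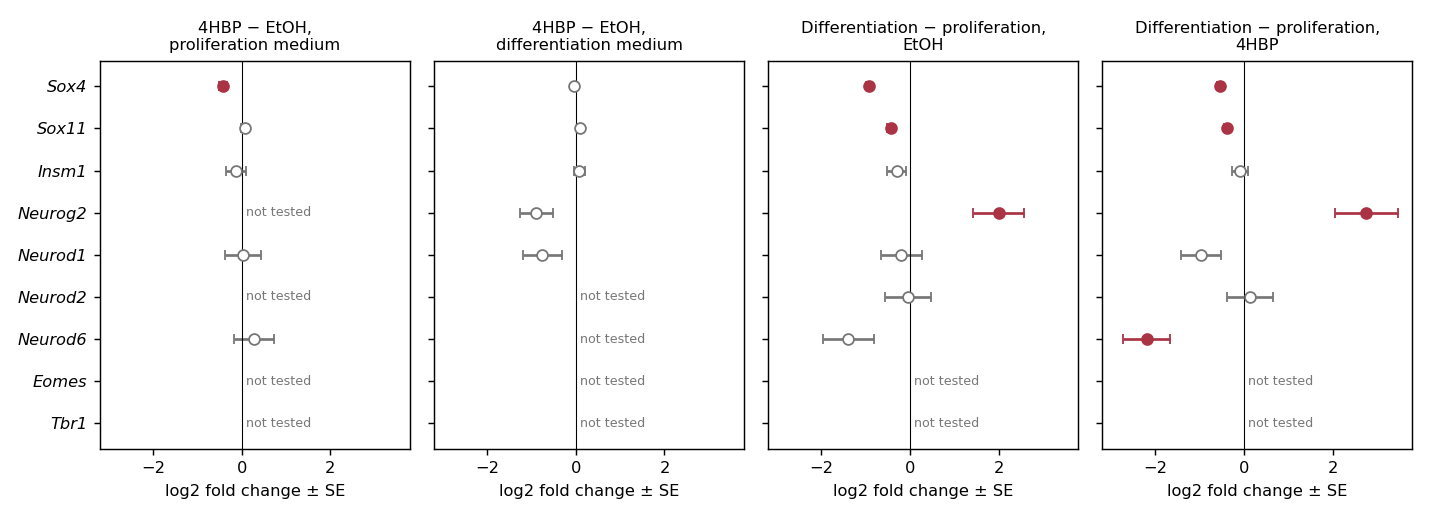
Log2 fold change (points) with its SE (bars) of each factor from edgeR in the 4 comparisons, filled for an adjusted p under 0.05, with factors that failed the filter on low counts marked as not tested. Sox4 is filled in 3 of the 4 panels (-0.42, -0.92 and -0.54), and Neurog2 (2.00 and 2.76) and Neurod6 (-2.19) lie farthest from 0.

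Of 12 other proneural and neuronal bHLH factors and E proteins, 6 were tested with 4HBP in proliferation medium, and 2 fell, among them Hes6, a bHLH factor that opposes Hes1. The median log2 fold change was -0.06, against 0.0014 over all genes tested, of which 3.69% fell. Hes6 (log2 fold change -0.54, SE 0.135, edgeR adjusted p = 0.0452) kept its call in 4 of 12 alternatives and, among single libraries, only on leaving out EtOH replicate 3. Neurog1 and Neurog3, the close relatives of Neurog2, were at 0 counts in all 11 libraries, Atoh1 had at most 2 counts, and Neurod4 and Nhlh2 were at 3 counts or fewer in every library. In differentiation medium 0 of 6 passed by edgeR (2 at an unadjusted p under 0.05), 0 by DESeq2 and 0 by limma, with a median of 0.07. Between the media with EtOH, 1 of 7 rose and 4 fell, among them the E proteins Tcf12 (-0.86, SE 0.0648, edgeR adjusted p = 1.8e-07) and Tcf3 (-0.64, SE 0.0824, adjusted p = 2.1e-05), the partners of proneural factors. Of all genes tested there, 30.8% rose and 30.6% fell.

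Of 9 antagonists of proneural bHLH factors (Hes, Hey and Id factors and Rest), 1 rose with 4HBP in proliferation medium and none fell, where 3.74% of all genes rose and 3.69% fell. The list had a median log2 fold change of 0.11. The gene that rose was Hey1, a Notch target that represses proneural genes, with 62.8, 70.4 and 60.8 CPM with EtOH and 88.03, 104.0 and 119.0 CPM with 4HBP. Every 4HBP library was above every EtOH library (log2 fold change 0.64, SE 0.102, edgeR adjusted p = 0.0104), a call lost without EtOH replicate 1 (edgeR adjusted p = 0.0675) and with limma (0.0713). In differentiation medium 1 of 9 rose, Id3, which blocks E proteins from pairing, with 66.9 and 71.9 CPM with EtOH and 84.3, 83.2 and 84.9 CPM with 4HBP (log2 fold change 0.28, SE 0.0449, edgeR adjusted p = 0.00316). That call was lost without EtOH replicate 1 (edgeR adjusted p = 0.0912), with limma and with all 11 libraries in one fit, with an adjusted p of up to 1. Between the media with EtOH, 3 of 9 rose and 2 fell, with Hes5, the main Notch effector in neural progenitors, at -3.46 (SE 0.384, edgeR adjusted p = 5.3e-06) and Id4 at 1.74 (SE 0.0947, adjusted p = 9.8e-09). Over all genes, 1.26% rose with 4HBP in differentiation medium, and 30.8% rose and 30.6% fell between the media with EtOH. With 4HBP in differentiation medium, 6 of the 9 antagonists had an unadjusted p under 0.05 by edgeR, against 15.9% of genes. DESeq2 gave 6 and limma 3, and the list's median log2 fold change was 0.02. In proliferation medium edgeR gave 3 of the 9, against 25.1% of genes.

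Of 12 targets of proneural factors, 0 passed with 4HBP in proliferation medium by edgeR, 4 at an unadjusted p under 0.05, 2 by DESeq2 and 0 by limma, with a median log2 fold change of -0.26. In differentiation medium 0 passed by edgeR, DESeq2 or limma, with 0 at an unadjusted p under 0.05 by edgeR and a median of 0.03. Between the media with EtOH, 4 of the 12 rose and 5 fell. Cxcr4, a chemokine receptor of migrating neurons, rose from between 2.72 and 3.43 CPM to 35.7 and 35.8 CPM (log2 fold change 3.44, SE 0.191, edgeR adjusted p = 1.2e-08). Srrm4, a neuronal splicing factor, rose (1.82, SE 0.258, adjusted p = 4.6e-05), and the Notch ligand Dll3 fell (-1.08, SE 0.221, edgeR adjusted p = 0.00093). Targets moved in both directions, as did all genes tested there, of which 30.8% rose and 30.6% fell. The list as a whole had a median of -0.15, against 0.03 over all genes tested.

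Of 13 other SoxC and neuronal fate factors, 0 passed with 4HBP in proliferation medium (12 tested, edgeR, 1 at an unadjusted p under 0.05, 0 by DESeq2 and 0 by limma) and 0 in differentiation medium (13 tested, 2 at an unadjusted p under 0.05, 0 by DESeq2 and 0 by limma). Between the media with EtOH, 5 rose and 4 fell, where 30.8% of all genes rose and 30.6% fell. Those with the largest change were Emx1, a dorsal forebrain factor with 0 to 4 counts in the 6 proliferation libraries and 13 and 17 in the differentiation EtOH libraries, Scrt2 (log2 fold change 2.30, SE 0.283, edgeR adjusted p = 1.4e-05) and Myt1l (1.87, SE 0.221, adjusted p = 9.3e-06), both zinc-finger factors of neurons. Emx1 passed the filter in the fit to all 11 libraries only through the differentiation libraries, where it was high. With EtOH it was called in all 12 alternatives, the fit without the filter among them. Neuron markers gave 0 calls of 12 with 4HBP in either medium by edgeR, DESeq2 and limma, with 0 and 3 at an unadjusted p under 0.05 by edgeR.

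Of 9 GABAergic lineage factors, 8 rose and 1 fell between the media with EtOH, where 30.8% of all genes rose and 30.6% fell, with a median log2 fold change of 1.87, against 0.03 over all genes tested. Dlx5, a homeobox factor of GABAergic precursors, rose from between 1.05 and 1.62 CPM to 6.48 and 7.13 CPM (log2 fold change 2.22, SE 0.197, edgeR adjusted p = 7.2e-07), Dlx6 rose with it (2.45, SE 0.547, adjusted p = 0.00171), and Lhx6 had 0 or 1 counts in the proliferation libraries and 0.958 and 1.49 CPM in the differentiation EtOH libraries. Dlx6 and Lhx6 passed the filter in the fit to all 11 libraries only through the differentiation libraries, where they were high. With EtOH both were called in all 12 alternatives, the fit without the filter among them. Under 4HBP 7 of 9 rose and 1 fell, where 33.3% of all genes rose and 33.8% fell. With 4HBP itself 0 of 7 passed in proliferation medium and 0 of 9 in differentiation medium by edgeR (1 and 3 at an unadjusted p under 0.05), and 0 by DESeq2 and by limma in both.

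**Figure D5:**
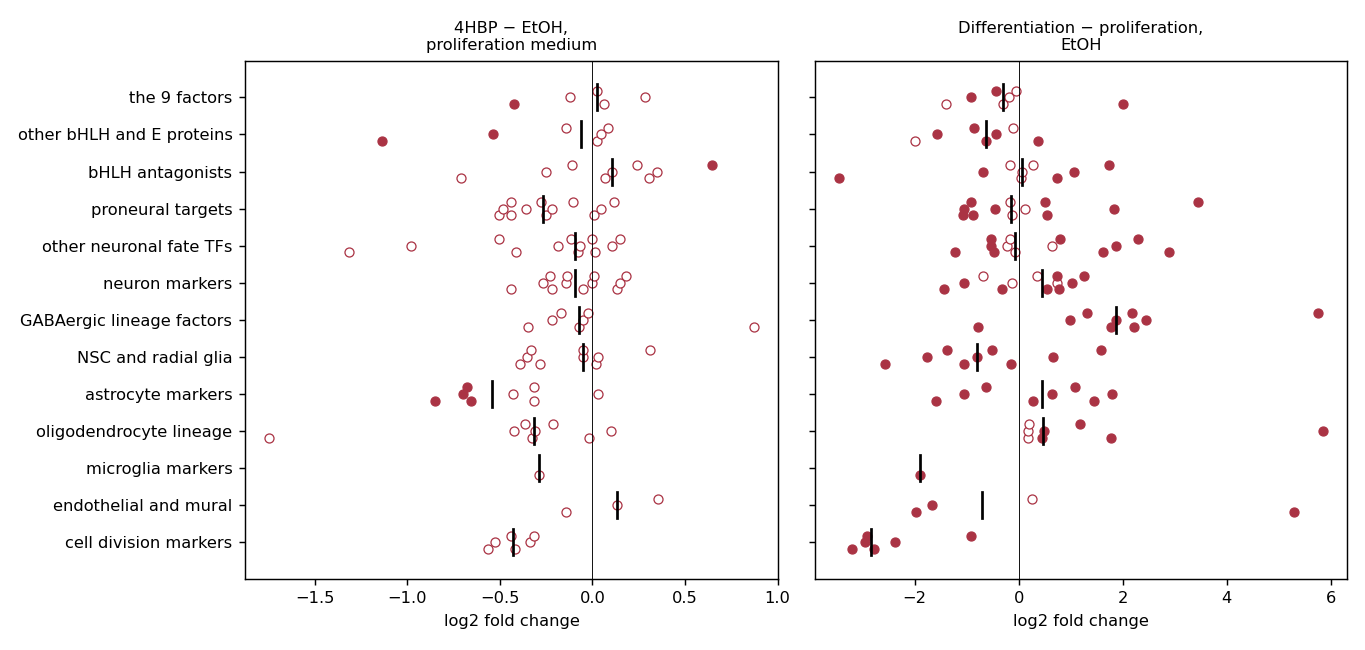
Log2 fold change of each tested gene (points, filled for an edgeR adjusted p under 0.05) in the 9 factors and 12 other gene lists, with the list's median as a black bar, for 4HBP against EtOH in proliferation medium (left) and differentiation against proliferation medium with EtOH (right), on different axes. On the left few genes are filled, among them Sox4 (-0.42) and 4 of 8 astrocyte markers, and on the right the GABAergic factors have a median of 1.87 and the cell division markers one of -2.84.

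Cell type and division markers that moved in the same libraries are given beside the member results, and their part in them was not tested. With 4HBP in proliferation medium, 4 of 8 astrocyte markers fell, with a summed level of 4072 to 4912 CPM against 5604 to 6863 CPM, among them Gja1 (log2 fold change -0.85, SE 0.14, edgeR adjusted p = 0.0122), and without 4HBP replicate 3 the count was 6 of 8. Over all genes tested by edgeR in that comparison, 3.69% fell. Of the 8 astrocyte markers, 7 passed by DESeq2 and 0 by limma. The Gja1 call was lost without EtOH replicate 1 or EtOH replicate 2 (edgeR adjusted p up to 0.0597) and with limma (0.0812). Of 6 cell division markers 0 passed by edgeR (3 at an unadjusted p under 0.05, 1 by DESeq2, 0 by limma), with summed levels of 438.9 to 787.5 CPM against 805.9 to 939.5 CPM. Of 9 stem cell markers 0 passed by edgeR (1 at an unadjusted p under 0.05, 1 by DESeq2, 0 by limma), with sums of 7632 to 8084 CPM against 7437 to 8375 CPM. Between the media all 6 cell division markers fell with EtOH and with 4HBP, and 7 of 9 stem cell markers fell in both. Over all genes tested, 30.6% fell with EtOH and 33.8% with 4HBP. Summed neuron markers were at 1190 to 1335 CPM in proliferation and 1263 to 1306 CPM in differentiation medium. Map2 was the largest part of these sums, with group means of 668.5 to 809.9 CPM. Of the 12 neuron markers, 5 rose and 3 fell between the media with EtOH, with a median log2 fold change of 0.44.

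Genes with the pattern most like each member over the 11 libraries were found as those with the smallest root mean square difference between their log2 CPM profiles, each centred on the mean of its 4 group means. For Sox4 these were Ptn (0.0564) and Sox5 (0.0588), against a spread of Sox4 about its own mean of 0.403. For Sox11 they were Apip (0.0555) and Riok1 (0.0597), against 0.217. For Insm1 they were Prr18 (0.116) and Upf3a (0.134), against 0.226. The low members that passed the filter lay at larger distances from their nearest genes, and their own spread was also wider. Neurog2 was nearest to Itih3 (0.405) and Gm47106 (0.414), against a spread of 1.16, Neurod6 to Lmo7 (0.360) and Tuft1 (0.365), against 0.905, Neurod1 to Zfhx3 (0.305) and Scn2a (0.314), against 0.544, and Neurod2 to Gm14412 (0.242) and Sept1 (0.285), against 0.457. No member was among the nearest genes of another.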

How the data were processed

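RNA of 11 cultures was sequenced as stranded mRNA libraries. The authors trimmed reads with cutadapt, quantified them with RSEM 1.3.0 and Bowtie2 2.2.9 on mm10 (GRCm38) with GENCODE vM17, and deposited for each gene and library an expected count with its TPM and FPKM. The FPKM values deposited were not used. TPM served for levels between genes only. Gene names and positions came from GENCODE vM21, which matched 99.66% of identifiers.

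Expected counts were rounded and tested with edgeR 4.0.16 (R 4.3.3, glmQLFit and glmQLFTest, TMM, filterByExpr by group), with Benjamini-Hochberg adjusted p under 0.05 over all genes tested. 4HBP was compared within each medium (6 and 5 libraries), and media and interaction in a fit to all 11 with a mean per group. The study used limma on log2(CPM+1), with genes called at p under 0.05 and a cut on fold change. Here limma calls used the adjusted p, so their counts are not the study's. That test (limma 3.58.1), DESeq2 1.42.0, library totals, no filter, a replicate block, other library sets, voom weights and leaving out each library were alternatives. Tests were checked on simulated counts with 200 changed genes and the same spread in all libraries. In the data the spread differed between the media, which the simulation did not cover. Python 3.11.15 with pandas 2.3.3 made the tables.

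Members and gene lists were chosen with earlier results of these data known. The text names all members, up to 3 called genes per list and comparison by absolute log2 fold change, and 2 genes of like pattern per member. Prox1 and other genes named as background or for a count were chosen after their values were seen. Lists are described by counts and medians, without a set test. Results of some listed genes are not reported here.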

Additional observations from a re-analysis of the deposited data

Results flagged for a closer look

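Sox4 was singled out because its 4HBP effect differed between the media by a direct test. The log2 difference, proliferation minus differentiation, was -0.39 (SE 0.101, edgeR adjusted p = 0.0475), from separate effects of -0.42 and -0.04. All 3 4HBP libraries were below all 3 EtOH libraries in proliferation medium, and all 3 were below both EtOH libraries in differentiation medium, there by a small amount. Over the 17 alternatives the adjusted p lay between 0.00432 and 0.211 and 5 of them kept the call, so that the direction was shared by all 17 and the call was not.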

How the results depend on the processing

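Between the media, the number of genes and of members called stayed within 1.5 times in all alternatives run. With 4HBP in proliferation medium, the genes called went from 1074 to 1633 with DESeq2, 18 with limma (7 higher and 11 lower), 2668 with all 11 libraries in one fit and 107 to 1429 on leaving out single libraries, fewest without EtOH replicate 1 (107), EtOH replicate 2 (137), 4HBP replicate 2 (290) and 4HBP replicate 1 (705). The members called there went from 1 to 0 with limma and were 0 to 1 on leaving out single libraries. In differentiation medium the genes went from 396 to 778 without the filter, 0 with limma (2660 at an unadjusted p under 0.05), 0 with all 11 libraries in one fit (644 at an unadjusted p under 0.05) and 77 to 288 on leaving out single libraries, fewest without EtOH replicate 1. The interaction genes went from 715 to 1086 with DESeq2, 1616 without the filter, 264 with limma and 117 to 1100 on leaving out single libraries, and its members called from 1 to 0 with library totals and with limma, and to 0 to 1 on leaving out single libraries. The cause was not tested.

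Members that were not called changed sign under some settings. These were Sox11 in the interaction with library totals (0.0025), Neurog2 in the interaction with limma (0.18), and Neurod2 between the media with EtOH with library totals (0.034) and limma (0.013). On leaving out single libraries, the log2 fold change with 4HBP in proliferation medium ranged from -0.40 to 0.28 for Neurod1, -0.087 to 0.76 for Neurod6 and -0.37 to 0.052 for Insm1. The interaction ranged from -0.67 to 0.17 for Neurod2 and -0.095 to 0.016 for Sox11. Between the media it ranged from -0.72 to 0.21 for Neurod1 and -0.51 to 0.31 for Neurod2 with EtOH, and from -0.18 to 0.43 for Neurod2 and -0.24 to 0.17 for Insm1 with 4HBP.

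Libraries with the same replicate number did not deviate together, with correlations of -0.0612 to 0.018, so the numbers were not taken as pairs. With the replicate number as a block, 534 genes and 0 members were called with 4HBP in proliferation medium (Sox4 adjusted p = 0.0874, edgeR), where Neurod1 turned to -0.023, 745 genes in differentiation medium, and 0 members in the interaction (Sox4 adjusted p = 0.0721). The biological coefficient of variation was 0.117 in proliferation and 0.0368 in differentiation medium, and 0.0907 over all libraries. Depth limits Neurog2, Neurod1, Neurod2, Neurod6, Eomes and Tbr1, at no more than 34 counts in any library.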

Other observations

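Between the media, 5 of 8 oligodendrocyte lineage markers rose with EtOH and 0 fell. Mog, a late myelin gene, went from 11, 13 and 13 counts to 873 and 776 counts. Mbp, a myelin protein gene, rose with a log2 fold change of 1.17 (SE 0.19, edgeR adjusted p = 0.00014). Under 4HBP all 8 rose, where 33.3% of all genes rose. Of 8 astrocyte markers, 5 rose and 3 fell with EtOH, with the glutamate transporter gene Slc1a2 at 1.80 (SE 0.0963, edgeR adjusted p = 8.9e-09) and Aldh1l1 at -1.59 (SE 0.0803, adjusted p = 5e-09). Of 12 neuron markers, 5 rose and 3 fell, with Snap25, a synaptic protein gene, at 1.26 (SE 0.192, edgeR adjusted p = 8.9e-05) and Gap43, a growth cone protein gene, at -1.44 (SE 0.212, adjusted p = 6.4e-05). These 3 lists were set against 61.4% of genes called.

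With 4HBP in differentiation medium, 2 of 9 stem cell and radial glia markers rose and 0 fell, Hopx (log2 fold change 0.31, SE 0.0689, edgeR adjusted p = 0.0248) and Fabp7 (0.23, SE 0.0465, adjusted p = 0.017), and 1 of 6 cell division markers rose, Ccnb1 (0.49, SE 0.124, adjusted p = 0.0476). Over 11 alternatives each, Hopx kept its call in 4, Fabp7 in 6 and Ccnb1 in 3. In this comparison 1.26% of all genes tested rose.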
